A study of Homo sapiens with 16 samples.

Results

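The response of the lung cancer line HCC827 to a pair of drugs was set against the response of a second line, H441, gene by gene, as the difference of the 2 changes. HCC827 and H441 are human lung adenocarcinoma lines, and the series calls both non-responsive. HCC827 is known for an activating EGFR mutation with amplification of that gene. The 4 groups compared were HCC827 Combo, HCC827 Vehicle, H441 Combo and H441 Vehicle, with 2 libraries each. Combo cells received 5 µM MYCi975, which inhibits MYC, together with 25 µM TMP195, which inhibits class IIa histone deacetylases, and Vehicle cells received DMSO. Drug or DMSO was added 1 day after plating and kept for 48 hours, in medium with 10% serum. The single agents were not analysed here, so a change belongs to the pair of drugs. Each line is a single cell line, and nothing in the labels says that its 2 libraries per treatment came from separate cultures, so p-values measure only the spread between libraries. Of 28951 genes in the table, 23968 passed a filter on low values and were tested over all 16 libraries of the series, and the other 4983 were not tested.

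MYC is a transcription factor that promotes growth, ribosome production and entry into the cell cycle. Class IIa histone deacetylases bind MEF2 transcription factors and hold their target genes down. When amino acids run short or other stresses block translation, the integrated stress response raises the factor ATF4, whose targets import and make amino acids and charge tRNAs. When sterols are plentiful, INSIG proteins hold the SREBP factors in the endoplasmic reticulum, and the genes of cholesterol synthesis are then transcribed less. Genes of late cell cycle are held down outside of division by the DREAM complex, which binds a short promoter element called CHR.

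The 8 libraries of both lines held 8759228 to 12507833 reads in listed genes, and replicate libraries correlated at 0.976 to 0.98 across genes, which are not independent replicates. Mitochondrial ribosomal RNA took 17.14 and 15.66% of the reads in HCC827 Combo, against 19.65 and 20.96% in HCC827 Vehicle. In H441 it took 16.86 and 17.01% in Combo, against 16.11 and 16.5% in Vehicle. This share thus moved in opposite directions in the 2 lines, and its part in the results below was not tested. All 11 epithelial markers were listed, and their summed level was 175998 to 193180 normalised reads in HCC827 and 99604 to 110334 in H441. Of 11 immune markers 5 were listed and summed to 10.1 to 27.2 normalised reads, with CD14 and NKG7 at or near 0. In HCC827 Combo most of the reads came from CD68, a lysosomal protein (24.7 and 22.1, against 6.06 and 6.08 in HCC827 Vehicle). ITGAM reached 13.6 in H441 Combo 2, where CD68 had 11.8. Of 11 markers of fibroblasts and endothelium 8 were listed. COL3A1 was at 0 in all 8 libraries, and the list summed to 42.3 to 108 in HCC827 and 420 to 770 in H441. In H441 most came from KDR (231 to 513), with COL1A1 at 65.4 to 133 and LUM at 75.6 to 104. In HCC827 KDR was at 0 to 2.35, and most came from COL1A1 (16.5 to 68.9) and ACTA2 (14.1 to 25.4).

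A difference in direction or size between the responses of the 2 lines was called for a small share of genes. Among these were cell cycle and sterol genes that fell in HCC827 and were rarely called in H441. The share called is not the share that differed, as each group had 2 libraries. Across all genes tested, the changes of the 2 lines correlated at a Pearson r of 0.15. Over the 15342 genes that passed a stricter filter on low values, r was 0.29. A difference is the HCC827 change minus the H441 change on the deposited log2 scale, so a negative value means a lower change in HCC827. At an adjusted p under 0.05 in limma, 481 genes were called (2.01% of those tested), 167 with a higher change in HCC827 (0.697%) and 314 with a lower change (1.31%). An unadjusted p under 0.05 was reached by 3462 genes. Called differences had a median size of 0.83, with a smallest of 0.30, and 174 of them (0.726% of genes tested) were at least 1. Within single lines, 2378 genes changed in HCC827 (9.92%), where 1060 rose (4.42%) and 1318 fell (5.5%), and 1110 in H441 (4.63%), where 665 rose (2.77%) and 445 fell (1.86%). Of these, 239 rose in both lines and 148 fell in both.

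The count of 481 depended on the libraries. It was 195 without HCC827 Vehicle 1, 207 without HCC827 Combo 2, 264 without H441 Vehicle 2, 307 without H441 Vehicle 1, 308 without H441 Combo 1, 313 without H441 Combo 2, 355 without HCC827 Vehicle 2 and 479 without HCC827 Combo 1. Of the 481 genes, 141 were called in all 8 of these refits. The balance of directions depended on the scaling. Higher changes in HCC827 were 34.7% of the calls as reported, 48.5% after quantile normalisation and 70.3% when recovered reads were scaled by library totals, which moved the median difference of all genes by 0.19. Directions below are relative to the deposited scaling, whose median difference was 0.

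**Figure D1:**
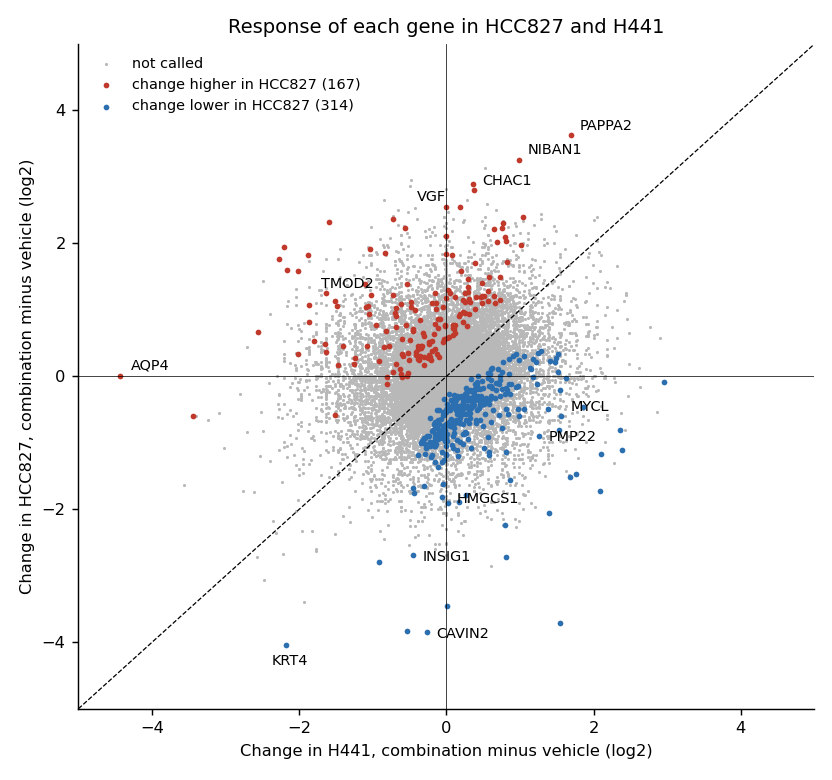
Change of each tested gene with the drug pair in HCC827 (vertical axis, log2) and in H441 (horizontal axis, log2). Each point is a gene, coloured points are the 167 and 314 genes whose difference was called, and genes on the dashed diagonal changed alike in both lines. CAVIN2 and INSIG1 lie far below the diagonal, and CHAC1, VGF and NIBAN1 far above it.

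The called differences were sorted by what each line did. In 275 of the 481 genes a change was called in HCC827 alone, and of these 191 fell and 84 rose. In 115 a change was called in H441 alone, of which 83 rose and 32 fell. Opposite calls in the 2 lines were found for 32 genes (0.134% of genes tested), and 30 were called in both lines with the same sign, of which 26 rose more in HCC827. The remaining 29 passed the test of the difference with a call in neither line. Of the 481, 422 reached 20 normalised reads in both lines and 434 were protein coding. In 361 of them (75.1%) the vehicle levels of the lines also differed, against 44.7% of all genes tested.

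In H460 and H1703, the other 2 lines of the series, which it calls responsive, many of these genes also changed. Of the 314 genes with a lower change in HCC827 than in H441, 130 fell in both H460 and H1703, against 8.03% of all genes tested. Of the 167 genes with a higher change in HCC827, 53 rose in both H460 and H1703, against 6.48% of all. The reverse was also seen, as 32 of the 314 rose in both H460 and H1703 and 6 of the 167 fell in both. Of the 191 genes that fell in HCC827 with no call in H441, 115 fell in both H460 and H1703. The same count for all 1318 genes that fell in HCC827 was not made. H441 shared changes with these lines as well. Of the 83 genes that rose in H441 with no call in HCC827, 49 rose in H460 and 17 in both H460 and H1703. Over all 23968 genes, 3370 rose in H460 and 6.48% in both. H460 and H1703 share no library with HCC827 and H441, but all 4 lines share the estimate of the spread.

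Genes of cholesterol synthesis and uptake fell in HCC827, and H441 showed no such fall. Of 24 tested members of the list, 11 had a lower change in HCC827 and 0 a higher change, against 1.31% and 0.697% of all genes. The median difference was -0.74 (0 over all genes). In HCC827 20 of the 24 fell, with a median change of -0.82. In H441 1 of 24 fell and the median change was -0.04. Medians were -1.17 in H460 and -0.83 in H1703. As everywhere in bulk RNA, fewer cells of a kind and less RNA per cell cannot be told apart.

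HMGCS1 (ENSG00000112972, chromosome 5, 43289395 to 43313512) encodes the synthase that starts the mevalonate pathway. It had 396 and 375 normalised reads in HCC827 Combo, against 1384 and 1511 in HCC827 Vehicle, and 1245 and 1100 in H441 Combo, against 1122 and 1182 in H441 Vehicle. Both HCC827 Combo libraries lay far below the other 6, and in H441 the treatments overlapped. The change was -1.90 ± 0.09 (SE) in HCC827 and 0.02 ± 0.09 in H441, a difference of -1.92 ± 0.13 (limma, adjusted p = 8.72e-08).

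INSIG1 (ENSG00000186480, chromosome 7, 155297776 to 155310235), which encodes the sterol sensor that retains SREBP and is itself an SREBP target, had 145 and 192 normalised reads in HCC827 Combo, against 959 and 1238 in HCC827 Vehicle. In H441 it had 1093 and 1057 in Combo, against 1405 and 1533 in Vehicle. Both lines were lower with the drugs with no overlap, but only the HCC827 change was called (-2.69 ± 0.21, adjusted p = 7.67e-07, against -0.45 ± 0.21, adjusted p = 0.300, in H441). The difference was -2.24 ± 0.30 (adjusted p = 0.00145).

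Other enzymes of the pathway also had a lower change in HCC827. The isomerase IDI1 differed by -1.32, the squalene synthase FDFT1 by -1.36 and the epoxidase SQLE by -1.16. The sterol oxidase MSMO1 differed by -1.25, the farnesyl diphosphate synthase FDPS by -0.55, the sterol dehydrogenase NSDHL by -0.72 and the thiolase ACAT2 by -0.98. FDFT1 had the firmest of these differences (± 0.15, adjusted p = 4.56e-05), and none of the 7 had a change above 0.16 or below -0.44 in H441. The transporter ABCA1, which exports cholesterol and is a target of the sterol receptors LXR, had 399 and 358 normalised reads in HCC827 Combo, against 1308 and 1357 in HCC827 Vehicle, and 217 and 165 in H441 Combo, against 184 and 212 in H441 Vehicle. Its difference of -1.75 ± 0.40 (adjusted p = 0.0312) was lost in 7 of the 8 refits without a library (adjusted p up to 0.126 without HCC827 Combo 2).

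The count of 11 called sterol genes fell to 6 without H441 Combo 1, H441 Vehicle 1, HCC827 Combo 2 or HCC827 Vehicle 2, to 7 without H441 Combo 2 or HCC827 Vehicle 1, and to 4 with neither a trend nor robust settings in the fit. HMGCS1, IDI1, FDFT1, SQLE and INSIG1 were among the 6 that kept their calls in all 8 refits without a library. MSMO1, FDPS and NSDHL each lost theirs in 6 (adjusted p up to 0.104 without H441 Vehicle 1, 0.139 without HCC827 Vehicle 2 and 0.116 without H441 Vehicle 1) and ACAT2 in 7 (up to 0.175 without HCC827 Combo 2).

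The promoters of HMGCS1 and INSIG1 are shown because these genes had the largest called sterol differences. CCAAT, bound by NF-Y, a partner of SREBP, was searched on both strands of 300 bases (250 before to 50 after the start) and is capitalised, here in its reverse form. It was in 15 of 18 sterol promoters matched (83.3%), in 5 of the 6 whose difference was called (83.3%), and in 34.6% of 35116 promoters. CCAAT was also in 17 of 33 promoters of integrated stress response genes (51.5%), so it is not particular to the sterol list. Genes of a list were counted with 1 promoter each, which was not done for the 35116. The sterol element, searched as TCACNCCAC, was in 1 of the 18 (5.56%), against 1.13% of all. The stretches are the 250 bases before the RefSeq start on GRCh38.p14, at chr5:43313413-43313662, minus strand, and chr7:155297628-155297877, plus strand, 5′ to 3′. GENCODE places the start of the longest transcript of each gene inside its stretch.
HMGCS1: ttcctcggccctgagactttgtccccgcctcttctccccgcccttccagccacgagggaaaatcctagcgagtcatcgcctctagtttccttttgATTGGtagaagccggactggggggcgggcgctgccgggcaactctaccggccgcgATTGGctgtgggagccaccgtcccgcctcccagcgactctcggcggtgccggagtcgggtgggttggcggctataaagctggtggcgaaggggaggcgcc
INSIG1: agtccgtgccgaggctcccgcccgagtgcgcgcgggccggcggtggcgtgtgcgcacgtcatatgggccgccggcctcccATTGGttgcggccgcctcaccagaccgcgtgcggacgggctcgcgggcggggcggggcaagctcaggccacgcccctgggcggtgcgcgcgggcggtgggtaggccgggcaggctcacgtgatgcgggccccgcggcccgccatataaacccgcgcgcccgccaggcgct

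Cell cycle genes fell in HCC827 more than in H441, most clearly those of mitosis. Of 40 genes of the G2 phase and mitosis, 20 had a lower change in HCC827 and 0 a higher change, against 1.31% and 0.697% of all genes. Their median difference was -0.73, with median changes of -0.84 in HCC827, where 36 fell, and -0.15 in H441, where 3 fell. Of 42 genes of the G1/S transition, 7 had a lower change in HCC827 and 0 a higher change, with a median difference of -0.38, and 30 fell in HCC827 against 5 in H441. Over all genes, 5.5% fell in HCC827 and 1.86% in H441. The median level of the G2/M list was 9.6 and 9.38 in HCC827 Combo, against 10.23 and 10.19 in HCC827 Vehicle, on the deposited log2 scale. It was 10.03 and 9.97 in H441 Combo, against 10.16 and 10.17 in H441 Vehicle. The falls in H460 and H1703 were larger, with G2/M medians of -1.74 and -1.86 and G1/S medians of -1.94 and -1.73.

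KIF20A (ENSG00000112984, chromosome 5, 138178719 to 138187715), a kinesin of the last step of cell division, had 345 and 252 normalised reads in HCC827 Combo, against 967 and 933 in HCC827 Vehicle. H441 had 883 and 861 in Combo, against 1147 and 1262 in Vehicle. The treatments did not overlap in either line, and the change was -1.68 ± 0.15 in HCC827 and -0.46 ± 0.15 in H441 (adjusted p = 0.0804), a difference of -1.22 ± 0.21 (adjusted p = 0.00323).

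DLGAP5, a spindle protein, had 1429 and 996 normalised reads in HCC827 Combo, against 2942 and 2492 in HCC827 Vehicle, while its H441 libraries overlapped at 2418 and 2234 in Combo, against 2309 and 2331 in Vehicle. Its difference was -1.18 ± 0.20 (adjusted p = 0.00352). The kinesin KIF2C (-1.17 ± 0.19) and the spindle pole protein ASPM (-1.16 ± 0.21) differed by about as much, and the ASPM call was lost without HCC827 Vehicle 1 (adjusted p = 0.0524) and with limma voom and library totals (0.0693). Smaller called differences were those of the cyclins CCNB1 (-0.76) and CCNB2 (-0.74), the topoisomerase TOP2A (-0.73), the checkpoint kinases BUB1 (-1.10) and TTK (-0.99), and the survivin gene BIRC5 (-0.78).

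Among the G1/S genes the enzymes of thymidine supply led. TYMS (ENSG00000176890, chromosome 18, 657604 to 673578), thymidylate synthase, had 718 and 611 normalised reads in HCC827 Combo, against 1522 and 1393 in HCC827 Vehicle. H441 had 1132 and 973 in Combo, against 1150 and 1036 in Vehicle, with overlap. The difference was -1.08 ± 0.14 (adjusted p = 0.000262). The thymidine kinase TK1 had 182 and 184 normalised reads in HCC827 Combo, against 399 and 358 in HCC827 Vehicle, and 834 and 890 in H441 Combo, against 792 and 837 in H441 Vehicle, where they overlapped. It differed by -1.11 ± 0.16 (adjusted p = 0.000781). The ribonucleotide reductase subunit RRM2 differed by -0.78 ± 0.13 and the replicative helicase subunits MCM5 by -0.75 and MCM7 by -0.53. DTL, a replication licensing control, differed by -0.84 ± 0.18, and its call was lost in 5 of the 8 refits without a library (adjusted p up to 0.112 without HCC827 Combo 2).

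The replication-dependent histone genes, made in S phase, were measured as well. In each line 20 of 34 fell, with medians of -0.73 in HCC827 and -0.67 in H441, and limma called 0 differences (5 at an unadjusted p under 0.05, 0 with limma voom on recovered reads under either scaling), where 2.01% of all genes were called, so a count of 0 is near that share in a list of this size.

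The G2/M count of 20 was 5 without HCC827 Vehicle 1, 6 without HCC827 Combo 2, 7 without H441 Vehicle 2, 8 without H441 Combo 1, 11 without H441 Combo 2 or H441 Vehicle 1, 13 without HCC827 Vehicle 2, and 0 with neither trend nor robust settings. BUB1, TOP2A, KIF20A, KIF2C and DLGAP5 were called in all 8 refits, and the median difference of the list lay between -0.88 and -0.57. CCNB1, TTK and BIRC5 each lost their calls in 4 of the 8 (adjusted p up to 0.0939, 0.102 and 0.0990, all without HCC827 Combo 2), CCNB2 in 7 (up to 0.166 without HCC827 Combo 2) and HMMR in 2 (up to 0.0509 without HCC827 Combo 2). The G1/S count of 7 was 4 without H441 Vehicle 2, HCC827 Combo 2 or HCC827 Vehicle 1, and RRM2, TYMS and TK1 were called in all 8. MCM5 was lost in 3 (adjusted p up to 0.0631 without HCC827 Combo 2) and MCM7 in 1 (0.0601 without H441 Combo 2).

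The promoters of HMMR, a spindle-associated receptor (difference -0.98, adjusted p = 0.00595), and of CCNB2, cyclin B2 (-0.74, adjusted p = 0.0308), are shown because each holds CHR, capitalised and searched as TTTGAA on both strands, close to its start. They were picked for the display from the called G2/M genes after the search. CHR was in 24 of 34 G2/M promoters matched (70.6%), in 11 of the 17 whose difference was called (64.7%), and in 15.2% of all promoters. CCAAT was in 26 of the 34 (76.5%). CHR and CCAAT were counted separately. In HMMR the element stands at -28 and again at -22 from the start, and in CCNB2 at -29. The stretches are the 250 bases before the RefSeq start on GRCh38.p14, at chr5:163460382-163460631, plus strand, and chr15:59104896-59105145, plus strand, 5′ to 3′. GENCODE has a longer HMMR transcript that starts before its stretch, and a CCNB2 transcript that starts within it.
HMMR: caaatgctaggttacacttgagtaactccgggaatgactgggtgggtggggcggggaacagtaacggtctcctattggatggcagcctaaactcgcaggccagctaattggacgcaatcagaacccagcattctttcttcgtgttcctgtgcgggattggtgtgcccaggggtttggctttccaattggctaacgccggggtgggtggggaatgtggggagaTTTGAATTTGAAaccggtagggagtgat
CCNB2: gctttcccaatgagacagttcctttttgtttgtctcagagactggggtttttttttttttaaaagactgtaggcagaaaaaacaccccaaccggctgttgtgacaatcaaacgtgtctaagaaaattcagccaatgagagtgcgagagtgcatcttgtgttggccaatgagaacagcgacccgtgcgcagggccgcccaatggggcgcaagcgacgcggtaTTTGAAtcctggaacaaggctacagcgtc

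**Figure D2:**
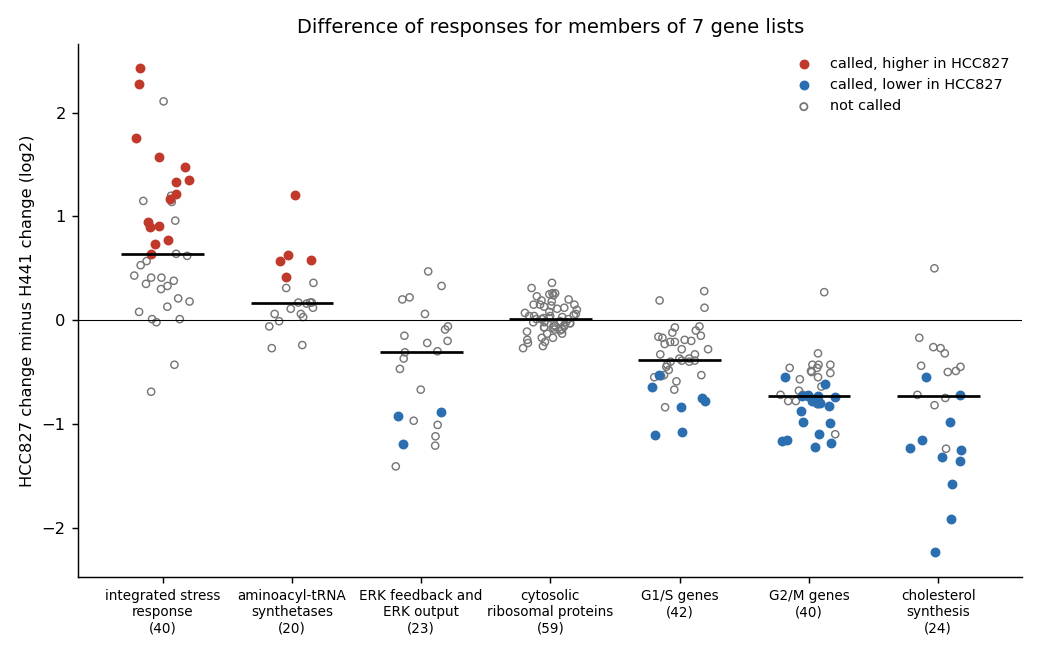
Difference of responses (HCC827 change minus H441 change, log2) for each tested member of 7 gene lists, with the number tested in parentheses. Filled points are called differences, open points are not called, and the bar is the median. The integrated stress response lies mostly above 0 with 15 called members, the G2/M and cholesterol lists lie mostly below 0 with 20 and 11 called, and the 59 ribosomal protein genes lie between -0.27 and 0.36.

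Genes of the integrated stress response rose in both lines, and more in HCC827. Of 40 tested, 15 had a higher change in HCC827 and 0 a lower change, against 0.697% and 1.31% of all genes, and the median difference was 0.64. In HCC827 31 rose and 0 fell, with a median change of 1.34. In H441 23 rose and 0 fell, with a median of 0.57. The median was 1.64 in H460 and 0.51 in H1703. The count of 15 was 8 without HCC827 Combo 2, 10 to 14 without each of the others, and 3 with neither trend nor robust settings. DDIT3, TRIB3, CEBPB, PCK2, PSAT1, SLC7A11, SLC1A5 and NIBAN1 were called in all 8 refits. Of the other members named below, JDP2 was lost in 4 (adjusted p up to 0.0751), CEBPG in 5 (up to 0.116) and ADM2 in 2 (up to 0.0707), each highest without HCC827 Vehicle 1, and SHMT2 in 1 (0.0579 without HCC827 Combo 2).

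TRIB3 (ENSG00000101255, chromosome 20, 362835 to 397559), a pseudokinase that feeds back on ATF4, had 598 and 796 normalised reads in HCC827 Combo, against 153 and 141 in HCC827 Vehicle. H441 had 177 and 197 in Combo, against 123 and 115 in Vehicle. It rose in both lines without overlap, by 2.21 ± 0.16 in HCC827 and 0.64 ± 0.16 in H441, a difference of 1.57 ± 0.22 (adjusted p = 0.000781).

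SLC7A11 (ENSG00000151012, chromosome 4, 138164097 to 138242349), the cystine importer and also a target of the oxidative stress factor NRF2, had 903 and 1003 normalised reads in HCC827 Combo, against 217 and 185 in HCC827 Vehicle. In H441 it had 2511 and 2553 in Combo, against 1564 and 1447 in Vehicle. Both lines rose without overlap, and HCC827 Combo stayed below H441 Vehicle. The difference was 1.48 ± 0.13 (adjusted p = 4.43e-06). Of the 30 NRF2 targets tested 2 had a called higher change, SLC7A11 and the ferritin light chain FTL (0.48 ± 0.10), and 0 a lower change. Over all genes the shares were 0.697% and 1.31%. The FTL call was lost in 4 of the 8 refits (the difference was 0.39 without H441 Vehicle 1).

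NIBAN1 (ENSG00000135842, chromosome 1, 184790724 to 184974550), a stress-induced gene, had 111 and 150 normalised reads in HCC827 Combo, against 17 and 7.09 in HCC827 Vehicle, and 36.3 and 44.5 in H441 Combo, against 17.7 and 20.6 in H441 Vehicle. It rose in both lines without overlap, and the difference was 2.28 ± 0.33 (adjusted p = 0.00173). Further members with a higher change in HCC827 were the mitochondrial carboxykinase PCK2 (1.35), the peptide hormone gene ADM2 (1.33), the bZIP factor genes JDP2 (1.17), DDIT3 (0.95), CEBPB (0.91) and CEBPG (0.77), the serine and glycine enzymes PSAT1 (0.90) and SHMT2 (0.64), and the glutamine carrier SLC1A5 (0.73). SESN2, which restrains the growth kinase complex mTORC1, differed by 1.22 ± 0.27, lost in 4 of the 8 refits without a library (adjusted p up to 0.128 without HCC827 Combo 2). The glycine carrier SLC6A9 differed by 1.76 ± 0.44 and was lost in all 8 (adjusted p up to 0.151 without HCC827 Combo 2). ATF4 itself changed by 0.56 in HCC827 and 0.48 in H441, and its difference was not called.

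CHAC1, which encodes an enzyme that degrades glutathione, had 77.6 and 59.0 normalised reads in HCC827 Combo, against 10.9 and 5.06 in HCC827 Vehicle. H441 had 28.2 and 60.8 in Combo, against 35.3 and 28.2 in Vehicle. HCC827 rose without overlap and the H441 treatments overlapped. The difference of 2.43 ± 0.57 (adjusted p = 0.0275) was the largest of the list, but was lost in 6 of the 8 refits without a library (adjusted p up to 0.140 without H441 Combo 1). Its promoter is shown for the CARE element, the site of ATF4 with a C/EBP partner, searched as TGATGNAA on both strands and capitalised here in its reverse form. CARE was in 5 of 33 stress response promoters matched (15.2%), in 1 of the 13 whose difference was called (7.69%), which was CHAC1, and in 3.62% of all promoters. The stretch is the 250 bases before the RefSeq start on GRCh38.p14, at chr15:40953221-40953470, plus strand, 5′ to 3′. GENCODE has a longer transcript that starts before it.
CHAC1: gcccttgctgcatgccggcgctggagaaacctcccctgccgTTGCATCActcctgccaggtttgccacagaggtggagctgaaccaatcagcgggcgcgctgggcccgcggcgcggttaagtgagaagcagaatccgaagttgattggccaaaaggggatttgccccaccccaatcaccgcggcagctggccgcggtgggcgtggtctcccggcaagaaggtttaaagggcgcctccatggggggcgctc

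The aminoacyl-tRNA synthetases, which charge tRNAs, followed in a milder form. Of 20 tested, 5 had a higher change in HCC827 and 0 a lower change, against 0.697% and 1.31% of all genes, and the median difference was 0.16. WARS1 (ENSG00000140105, chromosome 14, 100333788 to 100376805), for tryptophan, had 2728 and 3091 normalised reads in HCC827 Combo, against 1220 and 1197 in HCC827 Vehicle, and overlapped in H441 at 1201 and 1393 in Combo, against 1185 and 1313 in Vehicle. Its difference was 1.21 ± 0.15 (adjusted p = 0.000145). GARS1, AARS1, SARS1 and MARS1 rose in both lines and differed by 0.63, 0.58, 0.57 and 0.42. GARS1 and AARS1 were called in all 8 refits without a library. The SARS1 call was lost in 5 of the 8 (adjusted p up to 0.124 without HCC827 Combo 2) and the MARS1 call in 6 (up to 0.140 without HCC827 Combo 2). Of 26 genes of the unfolded protein response of the endoplasmic reticulum 1 was called, the factor gene XBP1 (0.68 ± 0.16). With 2.01% of all genes called, a count of 1 is near that share in a list of this size. The XBP1 call was lost in 6 of the 8 (the difference was 0.58 without HCC827 Combo 2). The cell cycle inhibitor CDKN1A, a target of p53, differed by 1.32 ± 0.28 (adjusted p = 0.0154). Its call was lost in 4 of the 8 (the difference was 1.26 without H441 Vehicle 1). It was also lost with limma voom (adjusted p = 0.0612 with library totals and 0.155 with the deposited size factors). Of 27 p53 targets tested, 3 had a higher change in HCC827 and 1 a lower change, CCNG1 (-0.81). The shares over all genes were 0.697% and 1.31%, and the median difference of the p53 list was 0.02.

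**Figure D3:**
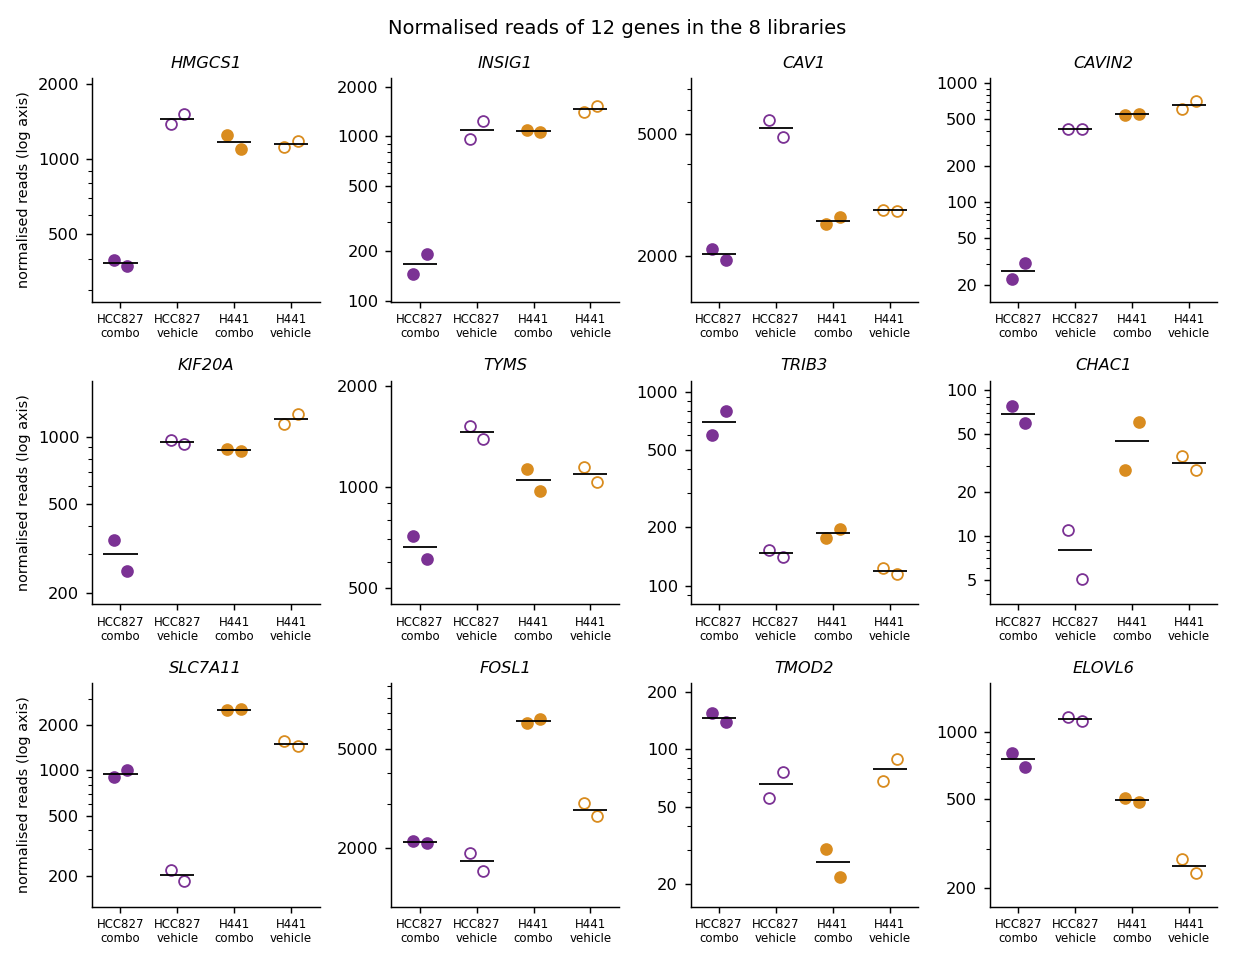
Normalised reads (log axis, scale set per gene) of 12 genes in the 8 libraries, with filled points for the drug pair, open points for vehicle and a bar at the mean of 2 libraries. HMGCS1, INSIG1, CAV1, CAVIN2, KIF20A and TYMS are lowest in HCC827 combo, while FOSL1 is high in H441 combo.

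A few feedback genes of ERK signalling and the EGFR gene had a lower change in HCC827, where they were not called, than in H441, where they rose. ERK is a kinase that acts downstream of EGFR. Of 23 feedback and output genes, 3 had a lower change in HCC827 and 0 a higher change, against 1.31% and 0.697% of all genes, with a median difference of -0.31. None of the 3 calls held in all 8 refits without a library. In HCC827 6 rose and 1 fell, with a median change of 0.05, and in H441 9 rose and 0 fell, with a median of 0.39. Over all genes, 4.42% rose in HCC827 and 2.77% in H441.

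FOSL1 (ENSG00000175592, chromosome 11, 65892049 to 65900573), an AP-1 factor that accumulates under ERK activity, had 2142 and 2089 normalised reads in HCC827 Combo, against 1912 and 1623 in HCC827 Vehicle. H441 had 6369 and 6596 in Combo, against 3029 and 2687 in Vehicle. The treatments did not overlap in either line, and H441 Combo stood far above the other 6. The change was 0.26 ± 0.12 (adjusted p = 0.200) in HCC827 and 1.18 ± 0.12 in H441, a difference of -0.92 ± 0.17 (adjusted p = 0.00589), lost without HCC827 Vehicle 1 (adjusted p = 0.0580). The ERK phosphatase DUSP4 differed by -1.19 ± 0.30 (adjusted p = 0.0460) and the pathway inhibitor SPRY4 by -0.89 ± 0.20 (adjusted p = 0.0214). Both were less firm, the first lost in 7 of the 8 refits without a library (adjusted p up to 0.206 without H441 Vehicle 2) and SPRY4 in 5 (up to 0.137 without HCC827 Combo 2). With limma voom neither was called, at 0.287 for DUSP4 and 0.164 for SPRY4 with library totals, and 0.349 for DUSP4 and 0.0939 for SPRY4 with the deposited size factors.

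EGFR (ENSG00000146648, chromosome 7, 55019021 to 55211628), the receptor kinase, had 128272 and 131899 normalised reads in HCC827 Combo, against 136029 and 131564 in HCC827 Vehicle. In H441 it had 4275 and 4417 in Combo, against 3484 and 3372 in Vehicle. Levels in HCC827 were far above those in H441 under both treatments, the treatments overlapped in HCC827, and H441 rose by 0.34 ± 0.06. The difference of -0.38 ± 0.08 (adjusted p = 0.0189) was lost in 7 of the 8 refits without a library (adjusted p up to 0.107 without HCC827 Vehicle 1), and with limma voom and library totals it was -0.20 and not called (adjusted p = 0.148). The ligand gene NRG1 fell in HCC827 (493 and 401 normalised reads in Combo, against 934 and 905 in Vehicle) and was at 0 in all 4 H441 libraries, so no H441 change could be measured for it.

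A further 3 regulators rose in H441 with no called change in HCC827. TNFAIP3, a brake on NF-kB signalling, had 286 and 313 normalised reads in HCC827 Combo, against 284 and 229 in HCC827 Vehicle, and 606 and 584 in H441 Combo, against 208 and 238 in H441 Vehicle. Its difference was -1.18 ± 0.23 (adjusted p = 0.00765), lost without HCC827 Vehicle 1 (adjusted p = 0.0687) and with limma voom (0.253 with library totals and 0.304 with the deposited size factors). The survival gene BCL2L1 changed by -0.17 ± 0.12 in HCC827 and rose by 0.62 ± 0.12 in H441, a difference of -0.78 ± 0.17 (adjusted p = 0.0145), lost in 4 of the 8 refits without a library (adjusted p up to 0.0954 without HCC827 Vehicle 1). The MYC relative MYCL rose by 1.56 ± 0.37 in H441 and differed by -2.16 ± 0.53 (adjusted p = 0.0356), lost in all 8 (adjusted p up to 0.143 without HCC827 Vehicle 1).

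The strictest form of a difference is a called rise in either line and a called fall in the other. This held for 32 genes, 6 that rose in HCC827 and fell in H441 and 26 that fell in HCC827 and rose in H441. The count was 7 without HCC827 Vehicle 1, 11 without HCC827 Combo 2 and 14 to 18 without each of the other 6 libraries. The 12 with the largest smaller change are described here.

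TMOD2 (ENSG00000128872, chromosome 15, 51751561 to 51816368), which encodes a protein that caps actin filaments, had 154 and 139 normalised reads in HCC827 Combo, against 55.7 and 75.9 in HCC827 Vehicle. H441 had 30.2 and 21.8 in Combo, against 68.5 and 89.0 in Vehicle. Vehicle levels of the lines overlapped and the Combo levels lay on opposite sides of them. The change was 1.14 ± 0.23 in HCC827 and -1.51 ± 0.23 in H441, a difference of 2.65 ± 0.32 (adjusted p = 0.000162), the largest positive one among genes that reached 20 normalised reads in both lines. The other 5 were HS6ST1, a heparan sulfate sulfotransferase (1.43 ± 0.24), TRAK2, an adaptor of mitochondrial transport (0.87 ± 0.14), WWC3, of the KIBRA family (0.78 ± 0.16), THOC5, of mRNA export (0.72 ± 0.12), and GOLM1, a Golgi membrane protein (0.62 ± 0.10). The WWC3 call was lost in 4 of the 8 refits without a library (adjusted p up to 0.0947 without HCC827 Combo 2).

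ELOVL6 (ENSG00000170522, chromosome 4, 110045846 to 110199199), the elongase of saturated fatty acids, had 807 and 700 normalised reads in HCC827 Combo, against 1171 and 1116 in HCC827 Vehicle. H441 had 508 and 487 in Combo, against 271 and 233 in Vehicle. It fell by 0.60 on the log2 scale in HCC827 and rose by 0.98 ± 0.12 in H441, a difference of -1.58 ± 0.17 (adjusted p = 3.51e-05). Of the 19 tested genes of its list, 2 more had a called lower change in HCC827 and 0 a higher change, against 1.31% and 0.697% of all genes. These 2 were the acyl-CoA ligase ACSL3 (-0.64 ± 0.14) and the elongase ELOVL5 (-0.44 ± 0.11). Both were lost in refits without a library, ACSL3 in 4 (adjusted p up to 0.0842 without HCC827 Combo 2) and ELOVL5 in 7 (up to 0.177 without HCC827 Combo 2). With limma voom and library totals ELOVL5 was -0.26 and not called (adjusted p = 0.188).

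PMP22 (ENSG00000109099, chromosome 17, 15229777 to 15265357), a membrane protein best known from myelin, had 319 and 239 normalised reads in HCC827 Combo, against 542 and 485 in HCC827 Vehicle, and 31.2 and 41.8 in H441 Combo, against 15.5 and 11.9 in H441 Vehicle. The treatments did not overlap in either line, and HCC827 stayed well above H441. The difference was -2.14 ± 0.27 (adjusted p = 0.000246). PLEKHG3, an exchange factor of small GTPases, had 431 and 509 normalised reads in HCC827 Combo, against 625 and 691 in HCC827 Vehicle, and 1262 and 1277 in H441 Combo, against 580 and 648 in H441 Vehicle. Its vehicle levels overlapped between the lines, the Combo levels did not, and the difference was -1.53 ± 0.17 (adjusted p = 6.99e-05). The polarity gene PARD3B (-1.95 ± 0.30, lost with limma voom at an adjusted p of 0.0753 with library totals and 0.0664 with the deposited size factors), the Notch ligand JAG1 (-1.29 ± 0.24) and the actin-binding CNN3 (-1.08 ± 0.17) also fell in HCC827 and rose in H441.

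**Figure D4:**
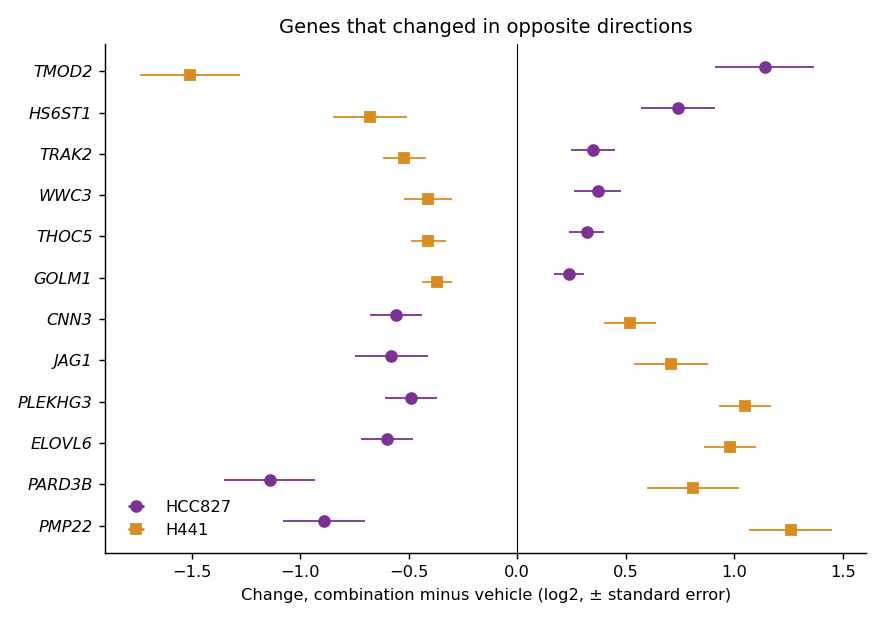
Change with the drug pair (log2, horizontal axis) in HCC827 (circles) and H441 (squares) for the 12 named genes called in opposite directions, with bars for the standard error of the fit. TMOD2 and 5 others rose in HCC827 and fell in H441, and PMP22 and 5 others fell in HCC827 and rose in H441.

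CAVIN2 had the largest negative difference among genes that reached 20 normalised reads in both lines. CAVIN2 (ENSG00000168497, chromosome 2, 191834302 to 191847255), a coat protein of caveolae, which are small pits of the cell surface, had 22.4 and 30.4 normalised reads in HCC827 Combo, against 410 and 415 in HCC827 Vehicle. In H441 it had 545 and 552 in Combo, against 611 and 711 in Vehicle. The HCC827 Combo libraries stood far below the other 6. The change was -3.85 ± 0.19 in HCC827 and -0.26 ± 0.19 (adjusted p = 0.553) in H441, a difference of -3.58 ± 0.27 (adjusted p = 5.59e-07). Neither H460 (0.46) nor H1703 (0.00) showed a called change, and the CAVIN2 levels of these lines are not given here.

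The antisense gene CAVIN2-AS1, which overlaps CAVIN2 on GENCODE, had 0 and 0 normalised reads in HCC827 Combo, against 20.6 and 14.2 in HCC827 Vehicle, and was at least 11-fold lower there with a floor of 3 reads for the group in place of 0. The kit marks strand, but the labels do not state the counting setting, so reads of the pair may not be told apart. CAV1 (ENSG00000105974, chromosome 7, 116524785 to 116561184), the main protein of caveolae, had 2103 and 1938 normalised reads in HCC827 Combo, against 5538 and 4874 in HCC827 Vehicle. In H441 it had 2535 and 2673 in Combo, against 2828 and 2793 in Vehicle. Its difference was -1.25 ± 0.14 (adjusted p = 4.56e-05).

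Other genes with a much higher change in HCC827 were NDUFA4L2, a mitochondrial protein known to be induced in hypoxia, and VGF, a precursor of secreted neuropeptides. NDUFA4L2 had 96.5 and 119 normalised reads in HCC827 Combo, against 9.69 and 15.2 in HCC827 Vehicle, and 23.2 and 22.7 in H441 Combo, against 14.4 and 20.6 in H441 Vehicle (difference 2.52 ± 0.41, adjusted p = 0.00250). VGF had 833 and 1023 in HCC827 Combo, against 132 and 182 in HCC827 Vehicle, and 76.6 and 54.5 in H441 Combo, against 56.3 and 56.4 in H441 Vehicle (2.36 ± 0.41, adjusted p = 0.00334). In both genes the HCC827 Combo libraries stood above the other 6. The transporter gene SLC12A8 had no called change in HCC827 (141 and 167 in Combo, against 119 and 123 in Vehicle) and fell in H441 (17.1 and 22.7 in Combo, against 74.0 and 103 in Vehicle), a difference of 2.35 ± 0.41 (adjusted p = 0.00392). TLR6, an innate immune receptor, differed by 1.94 ± 0.35 at 8.48 to 27.7 normalised reads, and its call was lost with limma voom on recovered reads (adjusted p = 0.0589 with library totals and 0.102 with the deposited size factors).

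Several of the largest differences lost their calls when libraries were left out. On the positive side, PAPPA2, a protease that frees insulin-like growth factors, rose in both lines and differed by 1.95 ± 0.42 (lost in 4 of the 8 fits, adjusted p up to 0.121 without HCC827 Combo 2, and with limma voom, 0.198 with library totals and 0.121 with the deposited size factors). ZNF132 differed by 2.12 ± 0.45 (lost in 5, up to 0.0711 without HCC827 Vehicle 1) and the pseudogene PDIA3P1, which can share reads with its parent gene PDIA3, by 1.99 ± 0.42 (lost in 4, up to 0.0846 without H441 Vehicle 2). On the negative side, the keratin KRT4 had 63.5 and 52.6 normalised reads in HCC827 Combo, against 936 and 1061 in HCC827 Vehicle, and 322 and 479 in H441 Combo, against 1671 and 1933 in H441 Vehicle. KRT4 fell in both lines, and more in HCC827 (-1.86 ± 0.40, lost in 6, up to 0.0998 without H441 Combo 2). The adhesion gene CEACAM6 differed by -1.88 ± 0.44 (lost in all 8, up to 0.143 without HCC827 Vehicle 2). EFR3B, a scaffold of the plasma membrane, differed by -1.71 ± 0.28 (adjusted p = 0.00267) and was called in all 8. Its HCC827 reads were few, at 15.3 and 7.38 normalised reads in Combo, against 26.7 and 26.3 in Vehicle. In H441 it had 789 and 696 in Combo, against 521 and 468 in Vehicle, with no called change. The EFR3B call was lost with neither trend nor robust settings in limma (adjusted p = 0.0726).

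Some called differences came from genes with few or no reads in HCC827 or in H441. AQP4 (ENSG00000171885, chromosome 18, 26852038 to 26865818), a water channel of alveolar cells, was at 0 in all 4 HCC827 libraries. In H441 it had 7.05 and 5.45 normalised reads in Combo, against 130 and 271 in Vehicle. Its fitted difference of 4.44 ± 0.96 (adjusted p = 0.0165) is the H441 fall alone, and it was lost in 6 of the 8 refits without a library (adjusted p up to 0.112 without H441 Vehicle 2) and with limma voom (0.102 with library totals and 0.143 with the deposited size factors). ADGRF5 (ENSG00000069122, chromosome 6, 46852512 to 46954943), an adhesion receptor known in mouse to restrain lung surfactant, had 0 and 0 in HCC827 Combo, against 15.8 and 10.1 in HCC827 Vehicle, at least 8.18-fold lower with the same floor. In H441 it kept 859 and 963 in Combo, against 840 and 965 in Vehicle, with overlap. HOPX, a factor of alveolar type I cells, had 1.18 and 1.84 in HCC827 Combo, against 9.69 and 11.1 in HCC827 Vehicle, and 264 and 293 in H441 Combo, against 219 and 246 in H441 Vehicle (difference -2.05 ± 0.40, adjusted p = 0.00736). The prostaglandin carrier SLCO2A1 had 395 and 449 in HCC827 Combo, against 606 and 679 in HCC827 Vehicle. In H441 it had 0 and 0 in Combo, against 11 and 14.1 in Vehicle, at least 8.79-fold lower. The SLCO2A1 difference of 2.84 ± 0.56 lost its call in 2 of the 8 refits without a library (the difference was 2.75 without HCC827 Combo 2).

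PGM5, a phosphoglucomutase relative, had 131 and 86.7 in HCC827 Combo, against 261 and 209 in HCC827 Vehicle, and 3.02 and 7.26 in H441 Combo, against 0 and 0 in H441 Vehicle, at least 3.2-fold higher there with that floor (difference -3.50 ± 0.57, adjusted p = 0.00240). DNAJA4, a heat shock cochaperone, had 8.23 and 9.22 in HCC827 Combo, against 1.21 and 0 in HCC827 Vehicle, 15.9 times as many (95% interval 2.5 to 666, counting error only). In H441 DNAJA4 had 19.1 and 25.4 in Combo, against 40.9 and 35.8 in Vehicle, and its difference was called (adjusted p = 0.00701).

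Called differences of alveolar genes went both ways. Of 23 tested, 2 had a higher change in HCC827 (AQP4 and the surfactant lipid carrier ABCA3, 1.60 ± 0.33). A lower change was called for 2 (HOPX and the factor FOXA1, -0.80 ± 0.19). The shares over all genes were 0.697% and 1.31%, and the median difference was 0.12. In HCC827 1 rose and 4 fell, with a median change of -0.60, and in H441 0 rose and 6 fell, with -0.69. The median level was 4.07 and 4.27 in HCC827 Combo, against 4.38 and 5.09 in HCC827 Vehicle. In H441 it was 4.45 and 4.5 in Combo, against 7.06 and 7.17 in Vehicle. ABCA3 was lost in 4 of the 8 refits without a library (adjusted p up to 0.0881 without HCC827 Combo 2) and with limma voom and the deposited size factors (0.0715), and FOXA1 in all 8 (up to 0.116 without HCC827 Combo 2).

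Genes called in both lines with the same sign differed mostly in the size of a rise. NIBAN1, PAPPA2 and TRIB3 had the largest differences of the 26 that rose more in HCC827. The kinase MAP4K4 had 4722 and 5164 normalised reads in HCC827 Combo, against 4082 and 4142 in HCC827 Vehicle, and 13244 and 13307 in H441 Combo, against 7441 and 7268 in H441 Vehicle. It rose in both lines without overlap, and less in HCC827 (-0.59 ± 0.09, adjusted p = 0.00233). MAP1B, a microtubule protein, also rose less in HCC827 (-0.62 ± 0.12, adjusted p = 0.00648), and its call was lost without HCC827 Vehicle 1 (adjusted p = 0.0524) and with limma voom and library totals (0.283). The monooxygenase CYP1B1 fell in both lines and less in HCC827 (0.92 ± 0.20, adjusted p = 0.0152, lost in 4 of the 8 refits, up to 0.108 without H441 Vehicle 1).

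A few single members of other lists are given here, called in all 8 refits except for CLDN1. MITF, a factor of lysosomal genes, had 674 and 591 normalised reads in HCC827 Combo, against 1174 and 1120 in HCC827 Vehicle, and 370 and 326 in H441 Combo, against 320 and 276 in H441 Vehicle. It fell in HCC827 without overlap, and the difference was -1.08 ± 0.17 (adjusted p = 0.00219). The p53 target CCNG1, a cyclin, differed by -0.81 ± 0.14 (adjusted p = 0.00278), and SNHG29, a host of small nucleolar RNAs, by 0.70 ± 0.13 (adjusted p = 0.00589). The tight junction gene CLDN1 had 329 and 319 in HCC827 Combo, against 113 and 100 in HCC827 Vehicle, and overlapped in H441 at 128 and 175 in Combo, against 110 and 153 in Vehicle. Its difference of 1.38 ± 0.26 (adjusted p = 0.00689) was lost without H441 Vehicle 2 (adjusted p = 0.0533).

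The mRNAs of the drugs' own targets showed no called difference. MYC had 2773 and 3566 normalised reads in HCC827 Combo, against 2092 and 2068 in HCC827 Vehicle, and 1021 and 1336 in H441 Combo, against 953 and 994 in H441 Vehicle. Both lines were higher with the drugs without overlap, by 0.60 ± 0.11 in HCC827 (adjusted p = 0.00164) and 0.26 ± 0.11 in H441 (adjusted p = 0.222), and the difference was 0.33 ± 0.16 (adjusted p = 0.346). HDAC9 had 532 and 533 normalised reads in HCC827 Combo, against 271 and 302 in HCC827 Vehicle, and 170 and 213 in H441 Combo, against 51.9 and 46.7 in H441 Vehicle. It was higher with the drugs in both lines without overlap. Its difference was -1.01 ± 0.37 (adjusted p = 0.192), and it was called in the fit of the 8 libraries alone (adjusted p = 0.0231) and with limma voom and the deposited size factors (0.0208). Differences were 0.28 ± 0.17 for HDAC4 (adjusted p = 0.506), -0.26 ± 0.18 for HDAC7 (0.576) and -0.10 ± 0.16 for HDAC5 (0.851), whose sign turned with library totals (0.07). Of MYC's partners, MAX differed by 0.60 ± 0.15 (adjusted p = 0.0382, lost in 7 of the 8 fits, up to 0.203 without HCC827 Combo 2). Among 19 tested MEF2 targets 2 were called, RCAN1 (0.95) and MEF2A (0.56), where 2.01% of all genes were called. Both calls were lost in most refits without a library, in 6 of 8 for RCAN1 and 7 of 8 for MEF2A. RCAN1 was also lost with limma voom (0.0892 with library totals and 0.196 with the deposited size factors).

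Counts of called differences in lists of housekeeping machinery are read against the 2.01% of all genes called, at which lists of these sizes would hold few or none. Of 59 cytosolic ribosomal protein genes limma called 0, with 1 at an unadjusted p under 0.05 and 0 with limma voom. Their changes were 0.15 in HCC827 and 0.14 in H441 at the median, and the differences ran between -0.27 and 0.36. Of 37 subunits of respiratory complex I limma called 0 (5 unadjusted, 0 with voom), of 13 mitochondrially encoded mRNAs 0 (1 unadjusted, 0 with voom) and of 66 mitochondrial ribosome genes 0 (8 unadjusted, 1 with voom under either scaling). Of 50 MYC targets of ribosome biogenesis 1 was called, the nucleolar NOLC1 (0.39 ± 0.09, lost in 6 of the 8 fits, adjusted p up to 0.122 without HCC827 Combo 2). The list of glycolysis and hypoxia held more, 5 of 30. In it the growth factor VEGFA had a higher change in HCC827 (0.84 ± 0.15, adjusted p = 0.00352) and PKM, ENO1, GAPDH and BNIP3L a lower one, by 0.30 to 0.62 in size. VEGFA was called in all 8 refits, while the other 4 lost their calls in 6 or 7 of them, with adjusted p up to 0.228 for GAPDH without HCC827 Vehicle 1. PKM was also lost with limma voom and library totals (-0.23, adjusted p = 0.0741). ENO1 lost its sign under quantile normalisation (0.00).

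**Figure D5:**
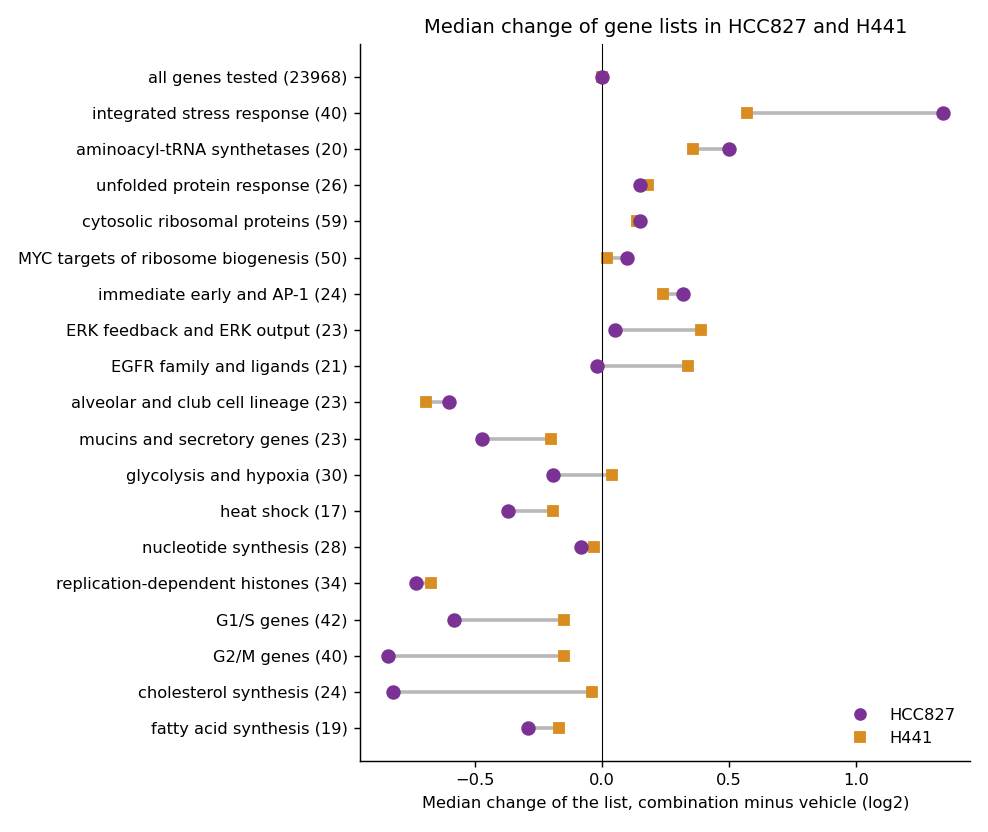
Median change with the drug pair (log2, horizontal axis) of 18 gene lists and of all genes tested, in HCC827 (circles) and H441 (squares), with the number of tested genes in parentheses. The lines stand far apart for the integrated stress response, G2/M, G1/S and cholesterol lists and close together for the ribosomal protein and histone lists.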

How the data were processed

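RNA was measured in 16 libraries of 4 lung cancer lines, 2 per line and treatment. Per the labels' protocols, libraries came from total RNA with a stranded kit. Per the submitters' processing notes, Trimmomatic, STAR and featureCounts were used with hg38 (GRCh38). The sources used here give no versions, counting strand or annotation. The deposited values are on a log2 scale, and their form, from the values, is that of a variance-stabilising transformation made by the authors over all 16 libraries. It was inverted to normalised reads (reads divided by the library's size factor), and 100% of values gave whole reads within 0.02. Libraries held 8493271 to 13604150 reads. Fold changes on this scale understate those of low genes. Intervals and floors cover counting error only.

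Deposited log2 values were fitted with limma 3.58.1 (R 4.3.3, trend and robust) on 8 group means, for genes with a mean at least 1 above the table's lowest value, with Benjamini-Hochberg adjustment over all 23968. Names and positions are from GENCODE 29 (28846 of 28951 IDs matched) and a gene name table (28782 with a symbol). Promoters are from RefSeq. On simulated data with 25358 genes, 50 genes each were changed in the difference by 1.5, 2, 3 and 4-fold. Of these, 14, 68, 86 and 92% were recovered. The 11 of 25158 unchanged genes that were called made up 7.8% of the calls.

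The comparison, its gene lists and the rule for named genes were chosen with earlier results of these data known. By that rule, the named genes were the 10 largest called differences each way among genes that reached 20 normalised reads in both lines, the 4 each way below that level, the 6 each way called in opposite directions with the largest smaller change, the 3 largest of each kind called with the same sign, up to 4 members of a list, and MYC, the class IIa deacetylases, EGFR, except for a few genes that are not reported here. Alternatives changed the scaling, filter, fit, libraries and replicate block.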

Additional observations from a re-analysis of the deposited data

Results flagged for a closer look

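A difference between HCC827 and H441 was the subject of the test, and the called ones are summarised here. It was called for 481 genes, and for 32 of these each line also had a call, in opposite directions. The 12 named genes of that kind had differences (HCC827 minus H441, log2) of 2.65 for TMOD2, 1.43 for HS6ST1, 0.87 for TRAK2, 0.78 for WWC3, 0.72 for THOC5 and 0.62 for GOLM1 on the positive side. On the negative side they were -2.14 for PMP22, -1.95 for PARD3B, -1.58 for ELOVL6, -1.53 for PLEKHG3, -1.29 for JAG1 and -1.08 for CNN3. Of the 12 differences, only that of WWC3 lost its call when a single library was left out (the difference was 0.66 without HCC827 Combo 2). That covers the difference alone and not the calls within each line, which define opposite directions. Some of those lay near the threshold in the main limma fit. WWC3 had an adjusted p of 0.0466 in HCC827 and 0.0442 in H441, and in HCC827 JAG1 had 0.0299 and GOLM1 0.0287. That of PARD3B was lost with limma voom (adjusted p = 0.0753 with library totals and 0.0664 with the deposited size factors). With neither trend nor robust settings WWC3, TRAK2, THOC5, GOLM1, PARD3B, JAG1 and CNN3 were not called (adjusted p of 0.0501 for PARD3B to 0.151 for WWC3).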

How the results depend on the processing

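Of 97 named genes with a called difference, 43 kept it without each of the 8 libraries and 25 under every other alternative that tested them. The self-test, with 2 libraries per group, recovered 14% of 1.5-fold differences, so most differences of that size were missed in it. Unlike the data, it gave all lines equal levels and changed genes in HCC827 Combo alone. It therefore does not give the share of small differences missed in the data, where called differences went down to 0.30 in size. The count of 481 differences, as 167 higher and 314 lower in HCC827, became 869 with limma voom on recovered reads scaled by library totals (611 and 258), 707 with the deposited size factors (202 and 505), 102 with neither trend nor robust settings (43 and 59), and 662 with only the 8 libraries (180 and 482). Voom with the deposited size factors was chosen after seeing the data. With neither trend nor robust settings 1183 genes were called in HCC827, 364 in H441, 95 with a difference of at least 1, and 9 in opposite directions, with 3 stress response, 2 G1/S, 0 G2/M and 4 sterol genes called. Calls in opposite directions, 32 as reported, were 54 under voom with the deposited size factors, 61 with only the 8 libraries, 19 after quantile normalisation and 49 with a stricter filter. Voom with the deposited size factors called 12 G1/S genes. Library totals gave median differences of 0.87 for the stress response, -0.56 for sterol genes, -0.57 for G2/M and -0.21 for G1/S, and quantile normalisation -0.30 for G1/S and -0.64 for G2/M. The cause was not tested.

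Without single libraries, the counts ranged between 195 and 479 for all differences, 61 and 153 for higher, 125 and 326 for lower, 87 and 189 for at least 1, 7 and 18 for opposite directions, 1013 and 2309 for the HCC827 response, and 499 and 1042 for the H441 response. Called members ranged between 8 and 14 for the stress response, 6 and 10 for sterol genes, 5 and 23 for G2/M, and 4 and 9 for G1/S. Median differences ranged between -0.48 and -0.27 for G1/S and between -0.88 and -0.57 for G2/M. A lone library was assumed to vary like the other groups. Signs turned for ENO1 (0.00, quantile normalisation) and HDAC5 (0.07 with library totals, and between -0.22 and 0.01 without single libraries, positive without H441 Combo 2).

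The labels do not say that a replicate number marks a shared culture or day, so the numbers were not taken as pairs. Within each of the 4 lines, same-numbered Combo and Vehicle libraries deviated from their group means with correlations of 0.0136 to 0.0319. With the replicate number as a block, 637 differences were called (200 higher, 437 lower), with 62 in opposite directions.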
